A study of Mus musculus with 35 samples.

Results

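NRF2 (Nfe2l2), its inhibitor KEAP1 (Keap1) and 8 of the genes that NRF2 is best known to activate (Gclc, Gclm, Slc7a11, Hmox1, Nqo1, Txnrd1, Srxn1 and Osgin1) were followed through RNA-Seq of mouse cardiac fibroblasts (CFs) and mouse hearts. The genes were chosen by symbol, and each of the 10 matched a single row among the 55487 genes of each of the 4 count tables. The study asked what the micropeptide IAMP, encoded in mice by 4930523C07Rik, does in fibroblasts. Primary CFs, which the study isolated from 8-week-old adult mice and passaged before use, received a control siRNA (si-NC) or an siRNA against IAMP (si-IAMP-1 or si-IAMP-2). The cells were otherwise untreated or were given IL-17 or TGF-β, with 3 libraries in each of the 9 groups. The labels give 24 h of siRNA followed by 24 h of IL-17, while times for untreated and TGF-β cells were not given in the sources used here. Hearts came from 4 heterozygous (Het) and 4 KO mice of the C57BL/6 strain, also 8 weeks old and unchallenged, so that the controls also carried the edited allele. The KO line was made with a single guide RNA that shifts the reading frame of IAMP and is constitutive, and the CFs were the passaged noncardiomyocytes of whole hearts.

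NRF2 is a basic leucine zipper transcription factor. Under resting conditions KEAP1, a cysteine-rich adaptor of the CUL3 ubiquitin ligase, binds NRF2 and directs its degradation. Oxidants and electrophiles modify KEAP1, newly made NRF2 then reaches the nucleus, pairs with small MAF proteins and binds antioxidant response elements. Because this switch acts on the protein, the mRNA of Nfe2l2 need not follow NRF2 activity, and the level of target mRNAs is the usual readout in transcriptome data. BACH1, a heme-binding repressor, occupies some of the same elements, and Hmox1 is the target best known for it.

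Promoters are shown because the factors named above act through short sequences near gene starts. RefSeq starts on build GRCm38.p6 were used for 8 of the 10 genes, all but Hmox1 and Gclc, with 3 starts for Txnrd1. Windows of 300 bases, from 250 before to 50 after each start, were searched on both strands for the core of the antioxidant response element, TGACNNNGC, and for the related AP-1-type sequence TGANTCA. The core was found in 12.4% of all 32841 promoter windows and the AP-1-type sequence in 7.81%, while matches of both kinds that shared bases occurred in 0.454%. Matches to the core were found for Nfe2l2, Gclm, Srxn1 and the second Txnrd1 start, and AP-1-type matches for Srxn1 and Osgin1. The windows of Keap1, Nqo1, Slc7a11 and the other Txnrd1 starts held neither sequence. For the 5 genes with a match, which were chosen by that and not by their expression, the 250 bases before the start follow in the direction of transcription, with matches in capitals: Gclm at chr3:122245307-122245556 (plus strand), Txnrd1 at chr10:82858956-82859205 (plus strand), Srxn1 at chr2:152105274-152105523 (plus strand), Osgin1 at chr8:119436897-119437146 (plus strand) and Nfe2l2 at chr2:75704664-75704913 (minus strand).
Gclm: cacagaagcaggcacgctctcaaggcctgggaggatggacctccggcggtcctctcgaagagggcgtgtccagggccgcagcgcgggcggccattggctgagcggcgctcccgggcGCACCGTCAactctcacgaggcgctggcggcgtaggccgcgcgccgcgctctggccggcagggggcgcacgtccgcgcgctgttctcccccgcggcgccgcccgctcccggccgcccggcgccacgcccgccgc
Txnrd1: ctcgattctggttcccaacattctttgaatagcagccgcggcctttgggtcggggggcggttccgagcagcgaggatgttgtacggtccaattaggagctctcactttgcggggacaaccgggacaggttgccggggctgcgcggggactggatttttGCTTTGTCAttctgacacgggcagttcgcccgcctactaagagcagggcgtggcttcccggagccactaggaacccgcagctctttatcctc
Srxn1: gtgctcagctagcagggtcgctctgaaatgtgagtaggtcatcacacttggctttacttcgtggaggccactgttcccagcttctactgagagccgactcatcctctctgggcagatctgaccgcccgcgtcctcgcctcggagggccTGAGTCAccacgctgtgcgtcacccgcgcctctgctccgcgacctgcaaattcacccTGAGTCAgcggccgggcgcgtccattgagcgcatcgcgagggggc
Osgin1: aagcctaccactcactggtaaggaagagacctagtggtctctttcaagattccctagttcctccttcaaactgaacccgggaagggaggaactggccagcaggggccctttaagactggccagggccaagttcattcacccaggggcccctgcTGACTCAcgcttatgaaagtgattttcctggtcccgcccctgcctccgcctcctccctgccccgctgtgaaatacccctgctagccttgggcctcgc
Nfe2l2: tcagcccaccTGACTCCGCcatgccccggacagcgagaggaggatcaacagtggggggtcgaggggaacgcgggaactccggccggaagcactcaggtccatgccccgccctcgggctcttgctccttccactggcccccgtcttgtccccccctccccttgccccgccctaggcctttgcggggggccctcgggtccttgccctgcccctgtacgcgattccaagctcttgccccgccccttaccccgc
Counting the base before the start as -1, the core began at -134 in Gclm, at -92 in Txnrd1 and at -240 in Nfe2l2. In Gclm and Txnrd1 it lay on the strand opposite to the gene. In Srxn1 the core lay at 29, after the start and outside the bases shown, also on the opposite strand. The AP-1-type matches of Srxn1 began at -102 and -45, and that of Osgin1 at -97. The Osgin1 and Txnrd1 windows belong to RefSeq starts inside the gene spans given below. These matches are letters in a window and were not tested as binding sites.

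CF libraries held between 104139670 and 119232309 estimated counts and heart libraries between 23497027 and 23857313 counts. The siRNAs lowered 4930523C07Rik in every table: in untreated cells the level was 23.5 ± 1.98 CPM (counts scaled to library size; mean ± SD, n = 3) with si-NC, 3.01 ± 0.494 with si-IAMP-1 and 1.84 ± 0.0635 with si-IAMP-2. The log2 fold changes with si-IAMP-1 and si-IAMP-2 were -2.97 and -3.69 in untreated cells, -2.85 and -3.44 under IL-17, and -2.23 and -2.65 under TGF-β, all called. Hearts held 15.9 to 18.8 CPM in Het and 15.1 to 17.3 in KO (n = 4 each), a log2 fold change of -0.09 ± 0.07 (SE). A frameshift need not remove its transcript, so this level does not check the KO label. All 7 fibroblast markers examined (Col1a1, Col1a2, Dcn, Lum, Pdgfra, Tcf21, Pdgfrb) were detected in every CF group, summing to 8736 to 8900.3 CPM with si-NC, 11810.5 to 12083 with si-IAMP-1 and 8013 to 8253 with si-IAMP-2 in untreated cells. In the same order of groups they summed to 8509 to 8621, 10741 to 11126 and 7905 to 8261 CPM under IL-17 and to 14870.2 to 15555, 15417 to 15793 and 16413 to 17182 CPM under TGF-β, where si-IAMP-2 and not si-IAMP-1 was highest. The 8 macrophage markers summed to 58.9 to 62.8, 59.8 to 63.1 and 78.4 to 80.6 CPM in untreated cells, highest with si-IAMP-2, to 58.9 to 60.8, 66.6 to 72.2 and 79.3 to 86.8 CPM under IL-17, and to 165 to 173, 133 to 149.6 and 149.5 to 156 CPM under TGF-β, lower with both IAMP siRNAs. The 5 endothelial markers summed to 55.8 to 59.9, 50.2 to 52.2 and 57.9 to 59.0 CPM in untreated cells. Of the 6 cardiomyocyte markers, Tnnt2 made up nearly all of a sum of 90.0 to 98.1, 41.7 to 46.7 and 27.03 to 32.4 CPM in untreated cells, with the defining Myh6 listed at 0 in the si-NC and si-IAMP-2 groups and Myl2 at 0 with both IAMP siRNAs. In bulk RNA, fewer cells of a type and less RNA per cell cannot be told apart, and the part of these marker levels in the results was not tested.

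All 10 genes were above the detection floor of 3 read pairs in CFs. Per kilobase of exon, in untreated si-NC cells, the order of levels ran from Hmox1 at 136 CPM per kb through Txnrd1 (58.8), Nqo1 (50.1), Srxn1 (43.9), Nfe2l2 (43.4), Gclc (19.4), Gclm (12.8), Keap1 (11.6) and Osgin1 (4.24) to Slc7a11 (1.83). Srxn1 and Nfe2l2 did not differ beyond their spread of 0.190 and 1.71 CPM per kb (SD, n = 3). The widest range over the 9 CF groups was that of Hmox1, whose highest group mean was 7.13 times the lowest, and the narrowest was that of Osgin1 at 1.86 times. Between these lay Gclc (4.31 times), Txnrd1 (4.31 times), Slc7a11 (4.12 times), Srxn1 (3.36 times), Nqo1 (2.93 times), Nfe2l2 (2.70 times), Gclm (2.56 times) and Keap1 (1.93 times).

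**Figure D1:**
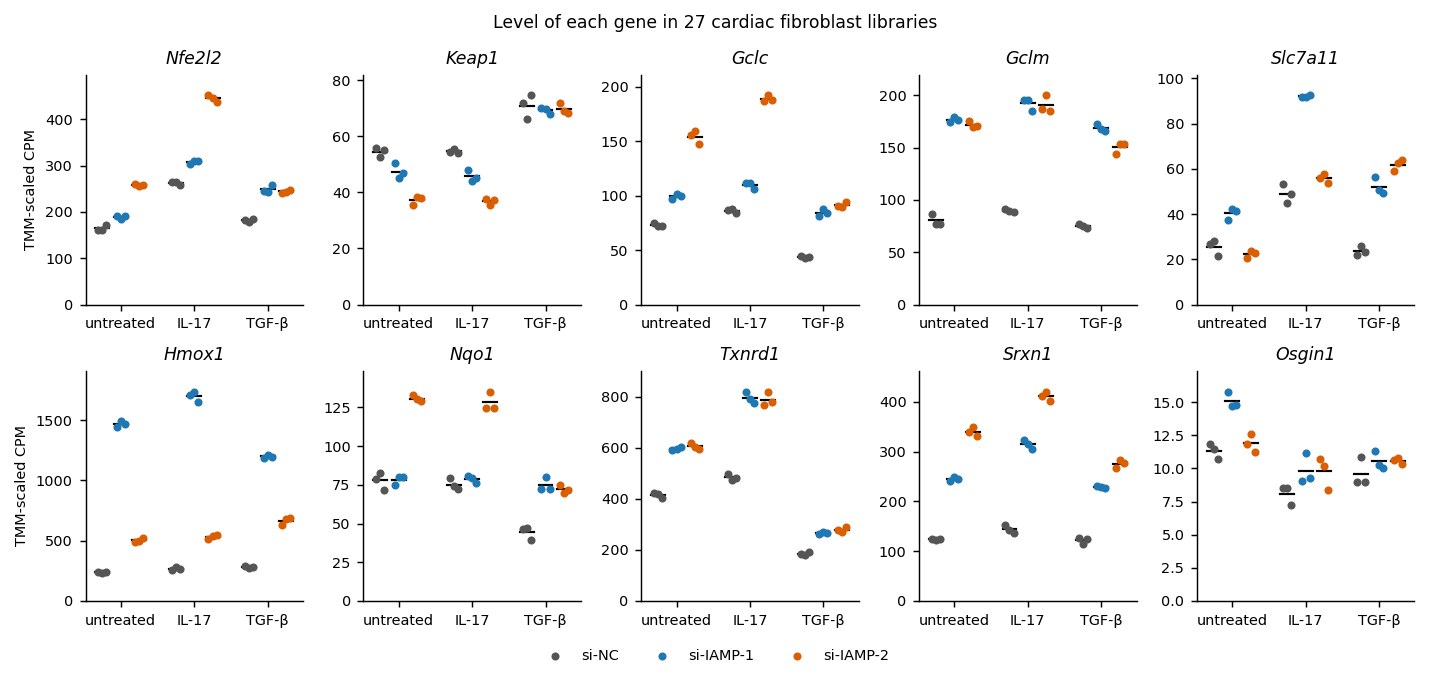
Level of each of the 10 genes in CPM (vertical axis, starting at 0) in the 27 CF libraries, grouped along the horizontal axis by treatment; each point is a library, coloured by siRNA, and each bar is the mean of 3. Hmox1 stood highest with si-IAMP-1 in all 3 treatments, from 1186 to 1734 CPM, while Gclm and Srxn1 were higher with both IAMP siRNAs than with si-NC in every treatment.

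Genes were called where the adjusted p of edgeR's quasi-likelihood test, over all genes of the table, was at most 0.05 and the fold change at least 1.5 (0.58 on the log2 scale). In untreated cells 4 of the 10 genes were called higher with si-IAMP-1 and none lower, where 5.42% and 6.65% of all 19669 genes tested were called higher and lower. With si-IAMP-2, 6 were called higher and none lower, against 8% and 13.1% of all genes. Under IL-17, 5 were called higher and none lower with si-IAMP-1 (all genes 5.58% and 7.97%). With si-IAMP-2 under IL-17, 7 were called higher and 1, Keap1, lower (all genes 8.06% and 13.7%). Under TGF-β, 6 were called higher and none lower with si-IAMP-1 (all genes 2.45% and 1.91%), and 7 higher and none lower with si-IAMP-2 (all genes 2.07% and 5.44%). The median log2 fold change of the 10 genes lay between 0.48 and 0.85 in these 6 comparisons, where that of all genes lay between -0.02 and 0.01. Hmox1, Gclm and Srxn1 were called higher in all 6 comparisons, Nqo1, Gclc and Slc7a11 in 4, Txnrd1 in 3, Nfe2l2 in 2, and Keap1 and Osgin1 in none. Both siRNA groups of a table share its 3 si-NC libraries, and nothing in the labels shows that libraries came from separate cultures, so that p-values measure the spread between these libraries, which may be technical.

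**Figure D2:**
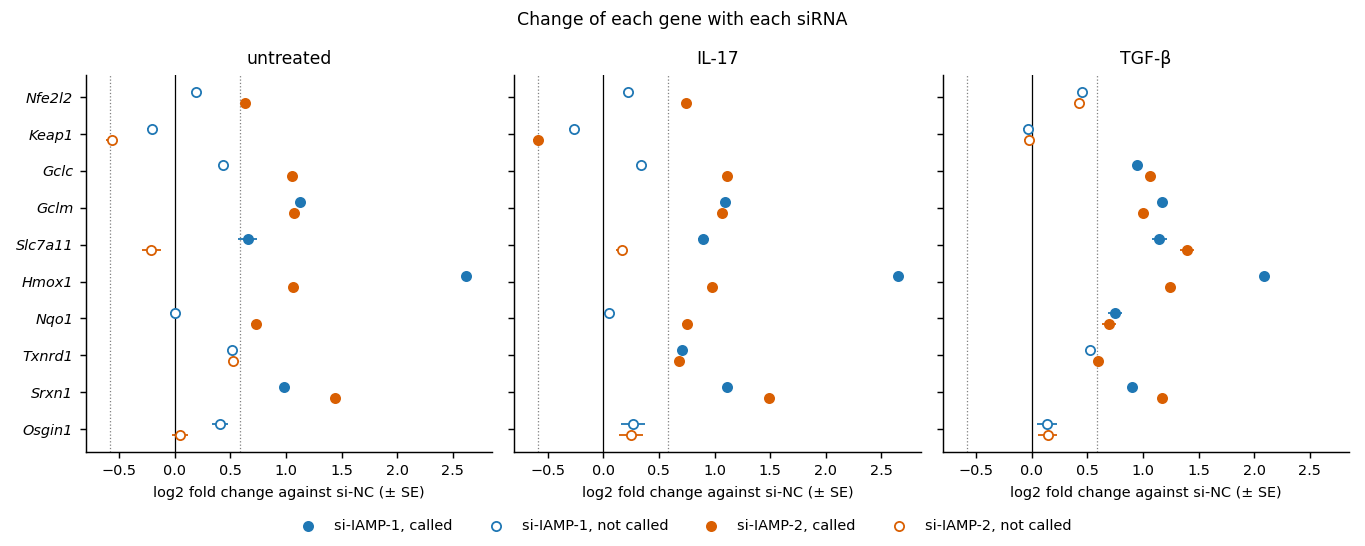
Log2 fold change (horizontal axis, with SE bars) of each of the 10 genes for each IAMP siRNA against si-NC, in untreated, IL-17 and TGF-β CFs; filled points were called and open points were not, and dotted lines mark a fold of 1.5. The largest value was that of Hmox1 with si-IAMP-1 under IL-17 (2.65), and Keap1 was the only gene with a filled point left of 0.

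Of the regulators, Nfe2l2 was called higher with si-IAMP-2 in 2 of the 3 tables. Nfe2l2, on the minus strand at chr2:75675513-75704641 on GRCm38 (ENSMUSG00000015839), the build of all gene positions here, was at 160.3, 162 and 172 CPM in the untreated si-NC libraries, at 191, 185 and 190.2 with si-IAMP-1 and at 261, 255 and 259 with si-IAMP-2. The 3 groups did not overlap, and si-IAMP-2 raised Nfe2l2 by 0.63 ± 0.03 on the log2 scale (SE; adjusted p = 7.25e-11), whereas the difference with si-IAMP-1 was 0.19 ± 0.03 (adjusted p = 0.00019), below the fold asked for. Under IL-17 the libraries held 264, 265 and 258 CPM with si-NC, 304, 310.1 and 311 with si-IAMP-1 and 451, 446 and 437 with si-IAMP-2. Here too the order was si-NC, si-IAMP-1, si-IAMP-2 without overlap, with log2 fold changes of 0.22 ± 0.03 (not called) and 0.74 ± 0.03 (adjusted p = 2.42e-13). Under TGF-β the levels were 181, 179 and 186 CPM with si-NC, 246, 242 and 258 with si-IAMP-1 and 241, 243 and 248 with si-IAMP-2. Both IAMP siRNA groups lay above si-NC and overlapped each other, and at 0.45 and 0.42 neither was called.

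Keap1, on the minus strand at chr9:21229730-21239361 (ENSMUSG00000003308), was called lower in 1 comparison and lay close to the fold threshold in another. The untreated libraries held 55.7, 52.6 and 55.0 CPM with si-NC, 50.4, 45.1 and 46.7 with si-IAMP-1 and 35.6, 38.4 and 37.8 with si-IAMP-2. The groups stood apart in descending order, and the log2 fold changes of -0.21 ± 0.05 and -0.57 ± 0.05 passed the adjusted p (0.00241 and 3.54e-08) but not the fold. Under IL-17 Keap1 was at 54.3, 55.6 and 53.9 CPM with si-NC, 48.0, 44.0 and 45.0 with si-IAMP-1 and 37.5, 35.4 and 37.4 with si-IAMP-2. The fall with si-IAMP-2 was called at -0.59 ± 0.04 (adjusted p = 4.68e-09), while si-IAMP-1 gave -0.27. These values sit at the fold threshold: without the second si-IAMP-2 or the second si-NC library the IL-17 call was lost (-0.564 and -0.575), and without the second untreated si-NC library the untreated value was called (-0.593). Under TGF-β the 3 groups overlapped, at 66.2 to 74.5 CPM with si-NC, 67.8 to 70.1 with si-IAMP-1 and 68.2 to 71.8 with si-IAMP-2, with 95% intervals of the log2 fold change of -0.12 to 0.06 and -0.11 to 0.06.

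Glutathione synthesis was represented by the catalytic (Gclc) and modifier (Gclm) subunits of glutamate-cysteine ligase, the rate-limiting enzyme, and by Slc7a11, the cystine importer xCT. Gclm, on the plus strand at chr3:122245557-122270732 (ENSMUSG00000028124), was at 87.0, 77.3 and 77.2 CPM with si-NC in untreated cells, at 174, 179.8 and 177 with si-IAMP-1 and at 175, 169 and 170.4 with si-IAMP-2. Every library with an IAMP siRNA lay above every si-NC library, and the siRNA groups overlapped each other. The rise over the 6 comparisons ran from 1.00 ± 0.04 (adjusted p = 4.69e-12) with si-IAMP-2 under TGF-β to 1.17 ± 0.04 (adjusted p = 2.75e-12) with si-IAMP-1 under TGF-β. Group means under IL-17 were 89.7 ± 1.89 CPM with si-NC, 192 ± 6.12 with si-IAMP-1 and 191 ± 7.90 with si-IAMP-2 (SD, n = 3). Under TGF-β they were 75.1 ± 1.99, 169 ± 3.61 and 150.5 ± 5.46 CPM.

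Gclc, on the plus strand at chr9:77754535-77794485 (ENSMUSG00000032350), separated the siRNAs. In untreated cells it was at 75.3, 72.5 and 71.8 CPM with si-NC, 97.3, 101 and 99.9 with si-IAMP-1 and 155, 159 and 148 with si-IAMP-2. The 3 groups did not overlap, and si-IAMP-2 raised Gclc by 1.06 ± 0.03 (adjusted p = 1.87e-13) while the 0.44 ± 0.03 of si-IAMP-1 fell short of the fold. Under IL-17 the groups again did not overlap, with 87.0, 87.6 and 83.9 CPM with si-NC, 112, 111 and 107 with si-IAMP-1 and 187, 192 and 188 with si-IAMP-2, and log2 fold changes of 0.34 ± 0.03 (not called) and 1.11 ± 0.03 (adjusted p = 8.66e-15). Under TGF-β both siRNAs raised it, from 44.7, 43.2 and 43.4 CPM with si-NC to 81.3, 87.6 and 84.3 with si-IAMP-1 (0.95 ± 0.04, adjusted p = 4.45e-11) and 90.5, 90.1 and 94.0 with si-IAMP-2 (1.06 ± 0.04, adjusted p = 6.38e-12). No siRNA library reached down to the si-NC range in any table.

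Slc7a11, on the minus strand at chr3:49892526-50443614 (ENSMUSG00000027737), had the lowest level per kilobase, and the comparisons that called it differed between the siRNAs. In untreated cells the libraries held 26.8, 28.3 and 21.4 CPM with si-NC, 37.2, 42.1 and 41.6 with si-IAMP-1 and 20.8, 23.5 and 22.7 with si-IAMP-2. The si-IAMP-1 libraries were all above the others, and the si-NC and si-IAMP-2 libraries overlapped. The rise with si-IAMP-1 was 0.65 ± 0.09 (adjusted p = 2.31e-05), and it was no longer called without the third si-NC library, the lowest of its group (0.54). With si-IAMP-2 the value was -0.21 ± 0.09 (adjusted p = 0.0586). Under IL-17 the levels were 53.2, 44.8 and 49.0 CPM with si-NC, 91.9, 91.8 and 92.4 with si-IAMP-1 and 56.0, 57.6 and 53.6 with si-IAMP-2. Again si-IAMP-1 stood apart, at 0.90 ± 0.05 (adjusted p = 1.45e-10), with 0.17 for si-IAMP-2, below the fold. Under TGF-β both siRNA groups were above the si-NC libraries of 21.9, 25.7 and 23.1 CPM. They reached 56.5, 50.8 and 49.2 CPM with si-IAMP-1 (1.15 ± 0.07, adjusted p = 1.19e-09) and 59.1, 62.5 and 63.8 CPM with si-IAMP-2 (1.39 ± 0.07, adjusted p = 6.36e-11).

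Hmox1 encodes heme oxygenase 1, which degrades heme, and showed the largest change of the 10 genes among the comparisons with si-NC. The gene lies on the plus strand at chr8:75093621-75100589 (ENSMUSG00000005413). Untreated libraries held 242, 234 and 238 CPM with si-NC, 1439.9, 1494 and 1467 with si-IAMP-1 and 491, 499 and 519 with si-IAMP-2. The groups were far apart, with folds over si-NC of 6.14 for si-IAMP-1 (2.62 ± 0.03 on the log2 scale, adjusted p = 3.5e-18) and 2.09 for si-IAMP-2 (1.06 ± 0.03, adjusted p = 4.32e-14). Under IL-17 Hmox1 was at 257, 281 and 266 CPM with si-NC, 1709, 1734 and 1648 with si-IAMP-1 and 514, 536 and 549 with si-IAMP-2. The log2 fold changes were 2.65 ± 0.04 (adjusted p = 7.08e-18) and 0.97 ± 0.03 (adjusted p = 2.66e-13). Under TGF-β the 3 groups were again apart, with 286, 277 and 282 CPM with si-NC, 1186, 1214 and 1197 with si-IAMP-1 (2.09 ± 0.04, adjusted p = 5.43e-16) and 632, 676 and 690.3 with si-IAMP-2 (1.24 ± 0.04, adjusted p = 2.6e-13).

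Bach1, the repressor named above and no member of the 10, was looked at beside Hmox1 after its values had been seen. Its mean level in untreated cells was 55.4 ± 3.10 CPM with si-NC, 22.3 ± 0.711 with si-IAMP-1 and 68.8 ± 2.98 with si-IAMP-2 (SD, n = 3). It fell with si-IAMP-1 (log2 fold change -1.32 ± 0.05, SE; adjusted p = 3.07e-12) and had a log2 fold change of 0.29 ± 0.05 with si-IAMP-2, which was not called. Under IL-17 the means were 96.3 ± 0.867, 32.5 ± 2.09 and 117 ± 1.74 CPM, and the log2 fold changes were -1.58 (called) and 0.26 (not called). Under TGF-β the means were 25.9 ± 2.05, 19.4 ± 1.04 and 29.4 ± 0.432 CPM, and neither -0.42 nor 0.18 was called. In si-NC cells Bach1 was called higher with IL-17 (0.79) and lower with TGF-β (-1.10) than in untreated cells. Whether the levels of the 2 genes depend on each other was not tested.

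Nqo1, a quinone reductase often used to read out NRF2 activity, lies on the minus strand at chr8:107388225-107403206 (ENSMUSG00000003849). In untreated cells it was at 79.0, 82.9 and 71.7 CPM with si-NC, 74.9, 80.3 and 80.0 with si-IAMP-1 and 133, 130.3 and 129 with si-IAMP-2. The si-NC and si-IAMP-1 libraries overlapped, with a 95% interval of the log2 fold change of -0.09 to 0.09, and all si-IAMP-2 libraries were higher (0.73 ± 0.05, adjusted p = 7.04e-10). Under IL-17 the levels were 79.4, 74.2 and 72.0 CPM, 80.5, 79.4 and 76.0 CPM and 125, 135 and 125 CPM in the same order of groups. Again only the si-IAMP-2 libraries stood apart, with an interval of -0.02 to 0.13 for si-IAMP-1 and a rise of 0.75 ± 0.04 (adjusted p = 3.9e-11) for si-IAMP-2. Under TGF-β both siRNAs raised Nqo1, from 46.7, 47.4 and 39.6 CPM with si-NC to 72.7, 79.8 and 72.5 with si-IAMP-1 (0.75 ± 0.06, adjusted p = 1.2e-07) and 75.1, 69.6 and 72.0 with si-IAMP-2 (0.70 ± 0.06, adjusted p = 1.77e-07). The TGF-β libraries with an IAMP siRNA overlapped the untreated si-NC libraries.

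Srxn1 encodes sulfiredoxin, which restores overoxidised peroxiredoxins, and lies on the plus strand at chr2:152105516-152111376 (ENSMUSG00000032802). Its untreated libraries held 124, 123 and 124 CPM with si-NC, 241, 249 and 244 with si-IAMP-1 and 339, 350.0 and 331 with si-IAMP-2. The groups were widely separated in that order, at 0.98 ± 0.03 (adjusted p = 1.77e-13) and 1.44 ± 0.03 (adjusted p = 1.19e-15) on the log2 scale. The same order without overlap held under IL-17 and TGF-β, where the rises were 1.11 and 1.49, and 0.90 and 1.17, for si-IAMP-1 and si-IAMP-2. Group means under IL-17 were 145 ± 8.21, 314 ± 9.52 and 411 ± 8.98 CPM with si-NC, si-IAMP-1 and si-IAMP-2 (SD, n = 3). Under TGF-β they were 122 ± 6.36, 229 ± 1.52 and 275 ± 7.74 CPM.

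Txnrd1, cytosolic thioredoxin reductase, lies on the plus strand at chr10:82833951-82897712 (ENSMUSG00000020250) and had the highest CPM of the 10 genes in untreated si-NC cells. In untreated cells the libraries held 424, 419.8 and 405 CPM with si-NC, 591, 597 and 605 with si-IAMP-1 and 619, 605 and 595 with si-IAMP-2. All siRNA libraries were above the si-NC libraries and the siRNA groups overlapped, but at 0.52 ± 0.03 and 0.52 ± 0.03 the difference passed the adjusted p (3.75e-10 and 1.18e-10) and not the fold. Under IL-17 both siRNAs raised Txnrd1, from 485 ± 10.8 CPM to 797 ± 21.7 with si-IAMP-1 (0.71 ± 0.03, adjusted p = 3.82e-12) and 789 ± 26.96 with si-IAMP-2 (0.68 ± 0.03, adjusted p = 2.1e-12). Under TGF-β the means were 185 ± 4.68, 266 ± 4.66 and 279 ± 9.98 CPM, with 0.52 ± 0.03 for si-IAMP-1 (not called) and 0.59 ± 0.03 for si-IAMP-2 (called, adjusted p = 1e-09). The last value is at the threshold, and the call was lost without the third si-IAMP-2 library (0.569) or the second si-NC library (0.580).

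Osgin1, an oxidative stress induced growth inhibitor on the plus strand at chr8:119434124-119446256 (ENSMUSG00000074063), was called in none of the 6 comparisons. It was at 11.9, 11.5 and 10.7 CPM in untreated si-NC cells, 15.8, 14.7 and 14.8 with si-IAMP-1 and 11.9, 12.6 and 11.2 with si-IAMP-2. The si-IAMP-1 libraries were above the others at 0.41 ± 0.07 (adjusted p = 0.00019), below the fold, and the si-IAMP-2 libraries overlapped those with si-NC. Under IL-17 and TGF-β the log2 fold changes were between 0.14 and 0.27, with adjusted p from 0.0537 to 0.312, and the libraries overlapped those with si-NC in all but the si-IAMP-1 group under IL-17.

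The siRNAs were also compared directly, since both aim at the same transcript. In untreated cells si-IAMP-2 libraries were higher than si-IAMP-1 libraries for Nqo1 (0.72 ± 0.05, adjusted p = 1.2e-09) and Gclc (0.62 ± 0.03, adjusted p = 2.14e-10), and lower for Hmox1 (-1.56 ± 0.03, adjusted p = 9.54e-16) and Slc7a11 (-0.87 ± 0.09, adjusted p = 9.74e-07). These 2 higher and 2 lower calls among 10 genes stand beside 5.72% and 10.1% of all genes. Under IL-17 the same 4 genes were called in the same directions, at 0.69 for Nqo1, 0.77 for Gclc, -1.68 for Hmox1 and -0.73 for Slc7a11 (all genes 6.07% higher and 9.62% lower). Under TGF-β 1 gene was called, Hmox1 at -0.85 ± 0.04 (adjusted p = 9.59e-11), and none was called higher (all genes 0.84% higher and 3.12% lower). For Gclm and Txnrd1 no comparison was called, with 95% intervals of -0.14 to 0.02 and -0.05 to 0.06 in untreated cells, -0.09 to 0.04 and -0.08 to 0.03 under IL-17, and -0.24 to -0.09 and 0.00 to 0.14 under TGF-β. For Txnrd1 under TGF-β, where the interval just left out 0, the unadjusted p of the quasi-likelihood test was 0.0569. Nfe2l2, Srxn1, Keap1 and Osgin1 were not called in any table either. In untreated, IL-17 and TGF-β cells the log2 fold changes were 0.44, 0.52 and -0.03 for Nfe2l2 and 0.46, 0.38 and 0.27 for Srxn1. They were -0.36, -0.32 and 0.01 for Keap1 and -0.36, -0.02 and 0.01 for Osgin1. For 4930523C07Rik, the target of both siRNAs, the log2 difference, si-IAMP-2 against si-IAMP-1, was -0.72 in untreated, -0.58 in IL-17 and -0.41 in TGF-β cells. The part of that difference in the other results was not tested.

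**Figure D3:**
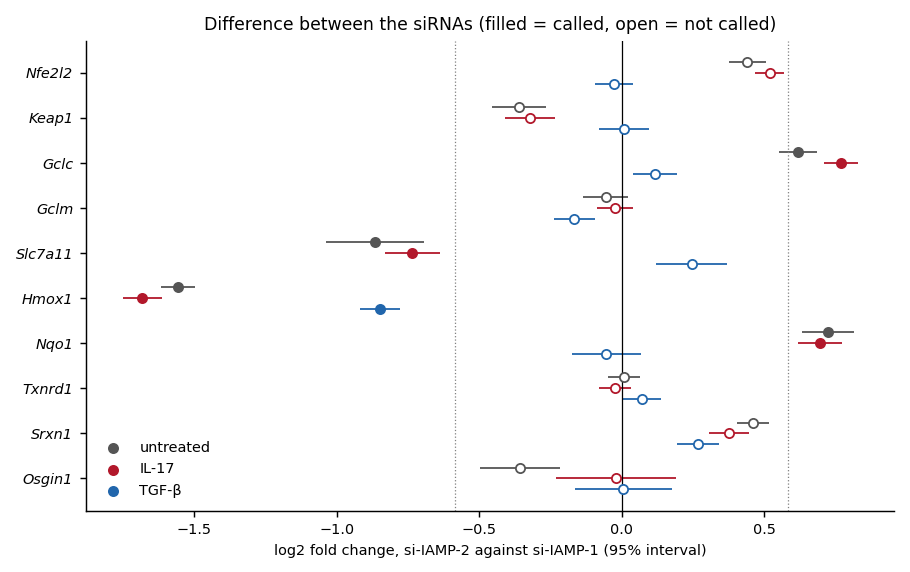
Log2 fold change of si-IAMP-2 against si-IAMP-1 (horizontal axis, bars are 95% intervals) for each of the 10 genes, coloured by treatment; filled points were called. Hmox1 and Slc7a11 lay left of 0 and Nqo1 and Gclc right of 0 in untreated and IL-17 cells, while under TGF-β only Hmox1 was called.

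Stimuli were compared in si-NC cells across tables, where stimulus and table (with any batch) cannot be told apart. With IL-17, 2 of the 10 genes were called higher and none lower (all genes 2.1% and 0.976% of 21219). Slc7a11 rose by 0.94 ± 0.08 (adjusted p = 7.71e-08), and Nfe2l2 rose by 0.67 ± 0.03 (adjusted p = 2.38e-15). Gclc, Txnrd1, Srxn1, Hmox1 and Gclm had small log2 fold changes of 0.23, 0.22, 0.22, 0.17 and 0.15, all below the fold, and Osgin1 one of -0.49. For Keap1 and Nqo1 the si-NC libraries of the tables overlapped, with 95% intervals of -0.09 to 0.09 and -0.14 to 0.04. With TGF-β, 3 genes were called lower and none higher, in a comparison where 18.7% of all 21508 genes were called higher and 16.2% lower. Txnrd1 fell most, from 416 ± 10.2 to 185 ± 4.68 CPM (-1.17 ± 0.03, adjusted p = 1.08e-19). Nqo1 (-0.81 ± 0.06, adjusted p = 1.09e-10) and Gclc (-0.74 ± 0.04, adjusted p = 9.48e-15) fell as well. Keap1 had a log2 fold change of 0.38 ± 0.05, below the fold, with si-NC libraries of 52.6 to 55.7 CPM untreated and 66.2 to 74.5 CPM with TGF-β. Hmox1 (0.24 ± 0.03) and Nfe2l2 (0.14 ± 0.03) were also higher with TGF-β without overlap of libraries, and below the fold. For Srxn1, Slc7a11, Gclm and Osgin1 the libraries overlapped, with log2 fold changes of -0.02, -0.12, -0.10 and -0.25. Those of Gclm and Osgin1 passed the adjusted p (0.0329 and 0.0108) and not the fold. Marker sums differed between the same groups: the si-NC sums of fibroblast and macrophage markers given earlier were higher with TGF-β, the endothelial sum (5 of 5 above the floor) was 55.8 to 59.9 CPM untreated and 88.7 to 90.0 CPM with TGF-β, and the cardiomyocyte sum was 90.0 to 98.1 CPM untreated (2 of 6 above the floor) and 4.70 to 5.67 CPM with TGF-β (4 of 6). Their part in these results was not tested.

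Whether the siRNA effect itself differed with a stimulus was tested as a difference of log2 fold changes in a joint fit, where stimulus and table cannot be told apart either. Between IL-17 and untreated cells 0 of the 10 genes were called with either siRNA by edgeR, and 0 by DESeq2 (all genes 0.448% with si-IAMP-1 and 0.485% with si-IAMP-2). With each siRNA, 3 of the 10 had an unadjusted p under 0.05. Only Txnrd1 passed the adjusted p, with differences of 0.19 ± 0.04 for si-IAMP-1 (adjusted p = 0.00673) and 0.17 ± 0.04 for si-IAMP-2 (adjusted p = 0.0215), both under the fold. Slc7a11 had the largest differences, at 0.25 ± 0.11 for si-IAMP-1 (adjusted p = 0.401) and 0.39 ± 0.11 for si-IAMP-2 (adjusted p = 0.128). Between TGF-β and untreated cells Nqo1 was called with si-IAMP-1 (all genes 5.61%). Its log2 fold change was higher under TGF-β by 0.74 ± 0.09 (adjusted p = 1.26e-06), at 0.004 in untreated cells and 0.75 under TGF-β. With si-IAMP-2 Slc7a11 was called (all genes 11.6%), with a log2 fold change higher under TGF-β by 1.59 ± 0.12 (adjusted p = 2.78e-09). It was at -0.21 in untreated cells, not called, and at 1.39 under TGF-β. The other differences that passed the adjusted p stayed under the fold. With si-IAMP-1 these were 0.51 for Gclc, 0.49 for Slc7a11, 0.26 for Nfe2l2 and -0.53 for Hmox1. With si-IAMP-2 they were 0.52 for Keap1, 0.16 for Hmox1, -0.22 for Nfe2l2 and -0.29 for Srxn1, so that Nfe2l2 and Hmox1 had opposite signs with the 2 siRNAs. Without the third untreated si-NC library the Slc7a11 difference with si-IAMP-1 reached 0.61 and was called. The knockdown differed too: 4930523C07Rik was lowered less under TGF-β, by 0.73 with si-IAMP-1 and 1.03 with si-IAMP-2, and the part of this in the differences above was not tested.

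In hearts no gene was called between KO and Het, whether among the 10 or among all 16675 tested (0%). None of the 10 had an unadjusted p under 0.05 with edgeR, and DESeq2 called none of them. Per kilobase, in Het hearts, Nfe2l2 and Nqo1 were highest at 14.7 and 14.2 CPM per kb and did not differ beyond their spread (1.68 and 1.93, SD, n = 4), while Hmox1 was at 3.85 and Slc7a11 lowest at 0.219. Nfe2l2 was at 49.6, 51.4, 58.6 and 63.3 CPM in Het and 61.7, 70.5, 50.9 and 61.5 in KO hearts, and Keap1 at 49.9, 45.9, 42.3 and 42.0 and 44.7, 43.6, 47.3 and 43.0. Hmox1 was at 5.65, 6.83, 7.63 and 6.84 CPM in Het and 8.12, 8.73, 6.32 and 6.72 in KO hearts. Het and KO libraries overlapped for all 10 genes. The 95% intervals of the log2 fold change, KO against Het, were -0.07 to 0.34 for Nfe2l2, -0.14 to 0.11 for Keap1, -0.10 to 0.40 for Hmox1, -0.30 to 0.19 for Nqo1, -0.18 to 0.21 for Gclc and -0.14 to 0.27 for Gclm. They were -0.11 to 0.29 for Slc7a11, -0.18 to 0.21 for Txnrd1, -0.42 to 0.58 for Srxn1 and -1.09 to 0.91 for Osgin1, and those of Slc7a11 and Osgin1 rest on at most 127 counts a library. Osgin1 had 88, 101, 91 and 114 counts in the Het hearts and 102, 121, 14 and 127 in the KO hearts, so that 1 KO heart held far fewer than the others. Without that heart the log2 fold change of Osgin1 moved from -0.09 to 0.28.

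**Figure D4:**
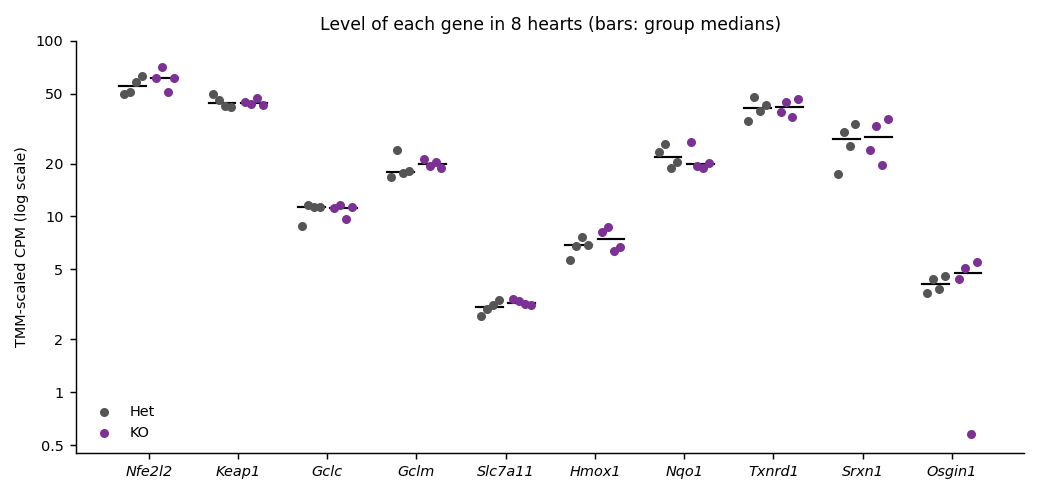
Level of each of the 10 genes in CPM (vertical axis, log scale) in 4 Het and 4 KO hearts; points are hearts and bars are group medians. Het and KO points overlap for every gene, and 1 KO heart lies at 0.575 CPM of Osgin1, where the other 3 lie between 4.43 and 5.47 CPM.

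Further genes of the pathway were taken from a list of 34 known NRF2 targets, of which 33 were tested in every comparison (Gpx2 was tested in none). In untreated cells 6 were called higher and 1 lower with si-IAMP-1, and 20 higher and 1 lower with si-IAMP-2, with medians over the list of 0.28 and 0.69 on the log2 scale (all genes called 5.42% higher and 6.65% lower, and 8% and 13.1%). Called higher with both were Taldo1 (1.77 and 2.46) of the pentose phosphate pathway, Gsta1 (1.496 and 2.89) and Mgst1 (1.04 and 1.61), both glutathione transferases, Prdx6 (1.06 and 0.78), a peroxiredoxin, and, outside the rule for named genes, Ftl1 (0.59 and 0.69), a ferritin subunit. Gsta1 was low, at 0.923 ± 0.164 CPM with si-NC, and like Ftl1 it has near-identical copies that may share its reads. Idh1, an NADPH-producing isocitrate dehydrogenase chosen after its values were seen, fell with si-IAMP-1 (-1.21 ± 0.03, adjusted p = 4.56e-14) and rose with si-IAMP-2 (1.39 ± 0.03, adjusted p = 2.93e-15). The gene called lower with si-IAMP-2 was Cbr3 (-0.77), a carbonyl reductase. Under IL-17, 11 were called higher and 2 (Idh1 and Cbr1) lower with si-IAMP-1, and 20 higher and none lower with si-IAMP-2 (all genes 5.58% and 7.97%, and 8.06% and 13.7%). Under TGF-β, 12 and 14 were called higher with si-IAMP-1 and si-IAMP-2 and none lower (all genes 2.45% and 2.07% higher). Of the direct comparisons between the siRNAs, si-IAMP-2 was higher for 13 and lower for 1 in untreated cells (all genes 5.72% and 10.1%), higher for 14 and lower for 1 under IL-17 (all genes 6.07% and 9.62%), and higher for 1 and lower for 1 under TGF-β (all genes 0.84% and 3.12%). With TGF-β against untreated si-NC cells, 12 of the 33 were called higher and 3 lower, beside 18.7% and 16.2% of all genes, and with IL-17 0 were called by edgeR or DESeq2, where 16 had an unadjusted p under 0.05. In hearts 0 of the 33 were called by edgeR or DESeq2, and 0 had an unadjusted p under 0.05.

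Of the 15 NRF2 partners and regulators on a second list, few were called, and their shares were not read as results about the list: in untreated cells 5.42% and 6.65% of all genes were called higher and lower with si-IAMP-1, and 8% and 13.1% with si-IAMP-2. In untreated cells si-IAMP-1 gave 1 higher call, Maff (0.59), a small MAF protein, and 2 lower, Bach1 and Rbx1 (-0.59), a subunit of the CUL3 ligase. With si-IAMP-2 the higher calls were Mafk (0.66), another small MAF protein, and Sqstm1 (0.78), the autophagy receptor p62 that binds KEAP1, and the lower calls were Bach2 (-2.05), a relative of BACH1, and Palb2 (-1.07). No gene of this list was called with both siRNAs in untreated cells, and the genes named from it were chosen after their values were seen. Under IL-17, 1 was called higher and 1 lower with si-IAMP-1 (all genes 5.58% and 7.97%). With si-IAMP-2 under IL-17, 2 were called higher and 2 lower (all genes 8.06% and 13.7%). Under TGF-β 0 of the 15 were called with si-IAMP-1 by edgeR or DESeq2 (all genes 2.45% and 1.91%), and 7 had an unadjusted p under 0.05. With si-IAMP-2 under TGF-β Sqstm1 was called higher (0.79) and Nfe2l3 lower (-1.02), beside 2.07% and 5.44% of all genes. Sqstm1 was thus called higher with si-IAMP-2 in all 3 tables, and Bach2, at 2.98 CPM with si-NC in untreated cells, lower in the untreated and IL-17 tables. Of 10 targets of ATF4, a stress factor that also drives Slc7a11, none was called higher with either siRNA than with si-NC in any table. Of all genes, between 2.07% and 8.06% were called higher in these comparisons. A count of 0 of 10 was therefore not read as a result about the list or about Slc7a11. At the adjusted p alone, without the fold, 1 to 4 of the 10 were higher in each comparison. In untreated cells 3 were called lower with each siRNA, where 6.65% of all genes were called lower with si-IAMP-1 and 13.1% with si-IAMP-2. Psat1 (-1.21 and -0.68), a serine synthesis enzyme, and Sesn2 (-0.76 and -0.60) were lower with both. Under IL-17, 3 of the ATF4 targets were called lower with si-IAMP-1 and 2 with si-IAMP-2 (all genes 7.97% and 13.7%). Under TGF-β 2 were called lower with si-IAMP-1 (all genes 1.91%). With si-IAMP-2 under TGF-β 0 were called in either direction by edgeR or DESeq2 (all genes 2.07% higher and 5.44% lower), and 6 had an unadjusted p under 0.05. With TGF-β against untreated si-NC cells, 5 of the 10 were called higher and 1 lower, beside 18.7% and 16.2% of all genes. With IL-17, 1 was called higher and none lower (all genes 2.1% and 0.976%). Between the siRNAs, si-IAMP-2 was higher for 2 and lower for 2 in untreated cells (all genes 5.72% and 10.1%). It was higher for 1 and lower for 2 under IL-17 (6.07% and 9.62%), and higher for 3 and lower for none under TGF-β (0.84% and 3.12%). The siRNA effect was called higher under TGF-β than untreated for 2 and lower for 1 with si-IAMP-1 (either way 5.61%), and for 2 and 0 with si-IAMP-2 (11.6%).

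How far the targets moved together was described over the 27 CF libraries, which share treatments, tables and si-NC groups. With the mean z-score of log2 CPM over the 8 targets, Pearson's r was 0.952 for Gclm, 0.925 for Srxn1, 0.881 for Gclc, 0.768 for Txnrd1, 0.759 for Nqo1, 0.723 for Hmox1, 0.531 for Slc7a11 and 0.374 for Osgin1, each of which is part of the mean. Nfe2l2, which is not, had an r of 0.642, and Keap1 one of -0.683. Outside the 10, the genes with the highest r of 13248 ranked were Abcc4 (0.976), Layn (0.962), Abcc1 (0.951), Tgoln1 (0.941) and Dnajc16 (0.933). Abcc4 and Abcc1, both export pumps for organic anions, are on the list of further NRF2 targets.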

How the data were processed

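RNA-Seq was analysed from 27 CF libraries in 3 tables (untreated, IL-17, TGF-β) and 8 heart libraries in 1 table. For CFs the authors deposited estimated counts per gene: the submitters' processing notes name cutadapt, HISAT2, StringTie and DESeq2 with GRCm38. A read pair was taken to be worth about 6 estimated counts, so the floor of 3 read pairs was set at 18 estimated counts. For hearts the authors deposited whole-number counts, with a floor of 3. The annotation release and strand setting were not given in the sources used here, and gene positions are those of the reference annotation on GRCm38. The worth of a read pair was inferred from the most frequent value among genes seen in 1 library. That value was 6 for 22.0%, 21.9% and 17.0% of such genes in the IL-17, untreated and TGF-β tables. In hearts it was 1, for 57.1%. The exact step behind the estimated counts was not given in the sources used here.

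Per table, the deposited counts were filtered by filterByExpr and scaled by TMM. They were tested with edgeR 4.0.16 (quasi-likelihood, robust, Benjamini-Hochberg) in R 4.3.3 over all genes and groups of the table. Stimuli and differences of effects used joint fits of 18 libraries. CF CPM values share the TMM scale of all 27 libraries. DESeq2 1.42.0 was an alternative. The scripts were tested on simulated data. Heart columns could be assigned to a group only. Correlations of same-numbered libraries were used to check pairing.

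Named genes were the 10 genes, 4930523C07Rik, up to 4 genes of each list with the largest mean change among those called alike with both siRNAs in untreated cells, and the 5 genes most correlated with the targets' mean. The genes and lists were chosen with earlier results of these data known. Intervals cover the spread between libraries, and floors counting error only.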

Additional observations from a re-analysis of the deposited data

Results flagged for a closer look

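In KO hearts the highest Nqo1 level, 26.5 CPM, stood apart from the other 3, whose median with it was 19.8 CPM. In Het hearts the lowest Gclc level, 8.78 CPM, stood apart from a group median of 11.4 CPM. Chance sets a library apart in this way in about 1 in 20 groups, and 10 genes in 2 groups of hearts were examined.

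The effect of si-IAMP-1 on Nqo1 differed between TGF-β and untreated cells by 0.74 on the log2 scale, and the effect of si-IAMP-2 on Slc7a11 by 1.59, both called by edgeR's quasi-likelihood test of the difference. In both cases the log2 fold change was higher under TGF-β, and the knockdown of 4930523C07Rik differed between the same tables. Slc7a11 with si-IAMP-2 was at -0.21 in untreated cells, not called, and at 1.39 under TGF-β. For Nqo1 the si-IAMP-1 means were 78.4 CPM untreated and 75.0 CPM under TGF-β, and the si-NC means were 77.9 and 44.6 CPM.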

How the results depend on the processing

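The direction and call of the 10 genes were recomputed for every comparison under other settings. These were a fold of at least 2, DESeq2, RLE size factors, and a stricter filter (10 counts or more in each library) or none. The others were fits of the compared groups alone, a replicate block, CF counts divided by 6, and each library left out in turn. Counts of calls among the further targets and the partners were recomputed for the comparisons with si-NC. Apart from the DESeq2 counts given above, the ATF4 targets, the other named genes, the remaining list counts and the correlations were not recomputed. Counts of calls are given where they went to or from 0 or changed by more than 1.5 times. No scaling moved the median of all genes by 0.1 on the log2 scale. Hmox1, Gclm and Srxn1 stayed called in all 6 comparisons with si-NC under the settings at a fold of 1.5. Keap1 with si-IAMP-2 under IL-17 was no longer called with RLE size factors (-0.583), DESeq2 (-0.583) or no filter (-0.582), which took the lower calls among the 10 genes from 1 to 0, and Txnrd1 with si-IAMP-2 under TGF-β was lost in the compared groups alone (0.582). With at least 10 counts, the partners called lower with si-IAMP-1 under IL-17 went from 1 to 2. The cause was not tested, apart from the fold itself.

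At a fold of at least 2, higher calls among the 10 genes went from 4 to 2 (untreated), 5 to 3 (IL-17) and 6 to 3 (TGF-β) with si-IAMP-1, and from 7 to 3 under IL-17 with si-IAMP-2, whose lower call went to 0. With si-IAMP-2 the higher calls of Nfe2l2 (0.63) and Nqo1 (0.73) in untreated cells were lost too. So were those of Nqo1 (0.70) and Txnrd1 (0.59) under TGF-β. Between the siRNAs, higher calls went from 2 to 0 and lower calls from 2 to 1 in both untreated and IL-17 cells, and the TGF-β lower call went to 0. With IL-17 the 2 higher calls went to 0, with TGF-β the 3 lower calls went to 1, and the Nqo1 difference under TGF-β was no longer called (0). Of the further targets, higher calls fell from 20 to 8 with si-IAMP-2 in untreated cells and its lower call to 0, from 11 to 4 (lower 2 to 1) with si-IAMP-1 and 20 to 12 with si-IAMP-2 under IL-17, and from 12 to 3 and 14 to 5 under TGF-β. Of the partners, si-IAMP-1 kept 0 higher and 1 lower call in untreated cells and 0 higher under IL-17, and si-IAMP-2 kept 0, 1 and 0 higher in untreated, IL-17 and TGF-β cells.

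Values near 0 changed sign. These were Nqo1 with si-IAMP-1 in untreated cells (-0.0030 with at least 10 counts), the IL-17 difference of the si-IAMP-2 effect on Gclm (-0.0066 with RLE and with DESeq2, -0.0035 with no filter, -0.015 in the compared groups alone), the TGF-β difference of the si-IAMP-1 effect on Txnrd1 (-0.012 with no filter) and Srxn1 with TGF-β (7.1e-05 with at least 10 counts).

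With 1 library left out, log2 fold changes ranged from 0.54 to 0.73 for Slc7a11 and from -0.052 to 0.050 for Nqo1 with si-IAMP-1 in untreated cells. Keap1 with si-IAMP-2 ranged from -0.593 to -0.540 in untreated and from -0.611 to -0.564 in IL-17 cells, so that the lower calls among the 10 genes were 0 to 1 in both. Under TGF-β Keap1 ranged from -0.074 to 0.0055 with si-IAMP-1 and from -0.070 to 0.013 with si-IAMP-2, and Txnrd1 with si-IAMP-2 from 0.569 to 0.620. Between the siRNAs, Txnrd1 ranged from -0.011 to 0.019 in untreated cells, Osgin1 from -0.097 to 0.086 under IL-17 and from -0.028 to 0.058 under TGF-β, Nfe2l2 from -0.045 to 0.00081 and Keap1 from -0.014 to 0.023 under TGF-β. For the stimuli, Keap1 ranged from -0.025 to 0.016 with IL-17 and Srxn1 from -0.047 to 0.024 with TGF-β. The IL-17 difference ranged from -0.00056 to 0.054 for Nfe2l2 with si-IAMP-1, and with si-IAMP-2 from -0.044 to 0.018 for Keap1, from -0.015 to 0.085 for Nqo1 and from -0.054 to 0.035 for Gclm. The TGF-β difference with si-IAMP-1 ranged from -0.011 to 0.074 for Gclm, from 0.41 to 0.61 for Slc7a11 (1 to 2 genes called) and from -0.015 to 0.033 for Txnrd1, and with si-IAMP-2 from -0.13 to 0.034 for Nqo1 and from -0.040 to 0.036 for Gclc. In hearts the ranges were -0.044 to 0.042 for Keap1, -0.18 to 0.024 for Nqo1, -0.071 to 0.071 for Gclc, -0.054 to 0.093 for Txnrd1, -0.077 to 0.22 for Srxn1 and -0.30 to 0.28 for Osgin1. Lower calls among the further targets with si-IAMP-1 in untreated cells ranged from 1 to 3, the 3 without the first si-NC library. Of the partners with si-IAMP-1, higher calls in untreated cells ranged from 0 to 1, lower calls from 1 to 3, and lower calls under IL-17 from 1 to 2. With si-IAMP-2 they ranged from 1 to 2 higher under IL-17, the 1 without the first si-NC library, and from 0 to 2 lower under TGF-β, where 5 of the 6 libraries each changed the count.

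Same-numbered fibroblast libraries did not deviate together, with pairwise correlations from -0.22 to 0.14. A replicate block left the counts of calls among the 10 genes as they were in all fibroblast comparisons, and moved the partners called lower with si-IAMP-2 under TGF-β from 1 to 2. Heart columns, named by animal, could not be matched to the numbered heart samples, and no replicate block was fitted in hearts. In CFs 3 libraries a group, and in hearts the counts of the lowest genes, limit what could be seen.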
